A study of Mus musculus with 4 samples.

Results

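The cells described here are 1924 lymphoma cells of 1 pBIC mouse, split by whether at least 1 UMI (a counted transcript molecule) of Il10 was captured in them. They are 1924 of 18129 barcodes in the pBIC gene expression library and of 33120 in the series. A barcode was taken as a cell of the pBIC lymphoma clone when it held at least 10 UMIs of the immunoglobulin segment Ighv2-9 and at least 10 of Igkv8-30, no UMI of the T-cell gene Cd3e and at least 5000 UMIs in all. The 2 groups were chosen by the measured Il10 count itself, and the clone by measured immunoglobulin and Cd3e counts: 641 cells were Il10-positive and 1283 Il10-negative. Il10 in these groups is therefore a description, and only the other genes compare them.

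Both mice of the series were female. One had the genotype pBIC and the other pBIC10, and the labels do not spell out the alleles of either. From each spleen, GFP-positive lymphoma cells and GFP-negative cells were sorted alive and joined at 20% and 80% before droplet capture from the 5' end of transcripts. All cells compared below come from the same animal, tumour and library, so they are not replicates, and every interval covers counting error only.

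Interleukin 10 is a secreted cytokine that restrains macrophages, dendritic cells and T cells. It binds a receptor of the chains Il10ra and Il10rb, which signals through Jak1, Tyk2 and Stat3. B cells make it mostly after stimulation through the B-cell receptor, Toll-like receptors or CD40, and B cells that do so are often called regulatory B cells. The transcription factors of the early response to such stimuli include the EGR, FOS, JUN and NR4A families.

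The B-cell identity of the clone was checked against markers. Cd79a, a signalling chain of the B-cell receptor, was detected in 99.9% of the cells and Ms4a1 (CD20) in 98.5%. Summed T-cell markers, 15 genes, stood at 258 CPM (UMIs scaled to a total of 1e6) in Il10-positive and 266 CPM in Il10-negative cells after matching on depth, against 39584 CPM in T-cell barcodes. TCR contigs were found in 1 Il10-positive and 4 Il10-negative cells. Of the barcode sequences, 712 occurred in both mice's gene expression libraries, 73 of them in the clone.

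The clone made Il10 as a group. It held 1167 Il10 UMIs, which is 32.5 CPM (30.7 to 34.5), and 33.3% of its cells (31.2 to 35.5) had at least 1. Erythroid barcodes, which should not make Il10, gave the background of free RNA: 7 of 315 had a UMI, which is 2.22%, at a higher median depth of 22431 UMIs against 16556 in the clone. After each cell was thinned to 5000 UMIs the shares were 11.3% (9.95 to 12.8) in the clone and 0.635% in erythroid barcodes. T-cell barcodes of the same spleen had 41.6 CPM, and 9.82% of them had a UMI after thinning. The lymphoma clone of the pBIC10 mouse, 1250 cells with a median of 29281 UMIs, had 0.242 CPM of Il10 and a UMI in 0.720% of cells (0.330 to 1.36), against 2.22% (0.898 to 4.52) in the erythroid barcodes of the pBIC library. The background of the pBIC10 library itself was not measured. That gap is between 2 mice and has no replicate.

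A cell that was read more deeply was more often Il10-positive. The share was 11.8% in cells of 5000 to 10000 UMIs, 29.9% from 10000 to 20000, 45.5% from 20000 to 40000 and 55.0% above that. The level in CPM did not follow the same order: it was 18.4, 36.8, 32.5 and 21.1 CPM. Il10-positive cells had a median of 19779 UMIs and 4418 genes, and Il10-negative cells 15180 UMIs and 3673 genes. A cell without an Il10 UMI is thus not shown to lack the transcript, and the genes below were compared between 628 cells of each kind matched on total UMIs, with medians of 19576 and 19423.

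The edges of the rule gave these values. The 366 cells with exactly 1 Il10 UMI were the members just inside the Il10-positive group. Barcodes with both segments but 1 Cd3e UMI, which the rule left out, numbered 290, and 36.2% of them had Il10. Barcodes with 5 or more UMIs of each segment but not 10 of both numbered 193, and 14.5% had Il10, at a median of 7992 UMIs. The 27 barcodes under 5000 UMIs had Il10 in 11.1%, and the 22 clone cells of 5000 to 6000 UMIs in 9.09%.

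Il10 was spread unevenly over the clone. If every cell had carried the same level, 833.8 cells would have shown it at their depths, against the 641 observed. At the other end 28 cells held 5 UMIs or more, where one level would give 3.06, and these 28 cells held 15.6% of all Il10 UMIs. The highest count was 12, in 2 cells. The Fano factor of the thinned counts, their variance over their mean, was 1.40, against a median of 1.05 among 2510 genes of like mean, of which 45 were higher.

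**Figure D1:**
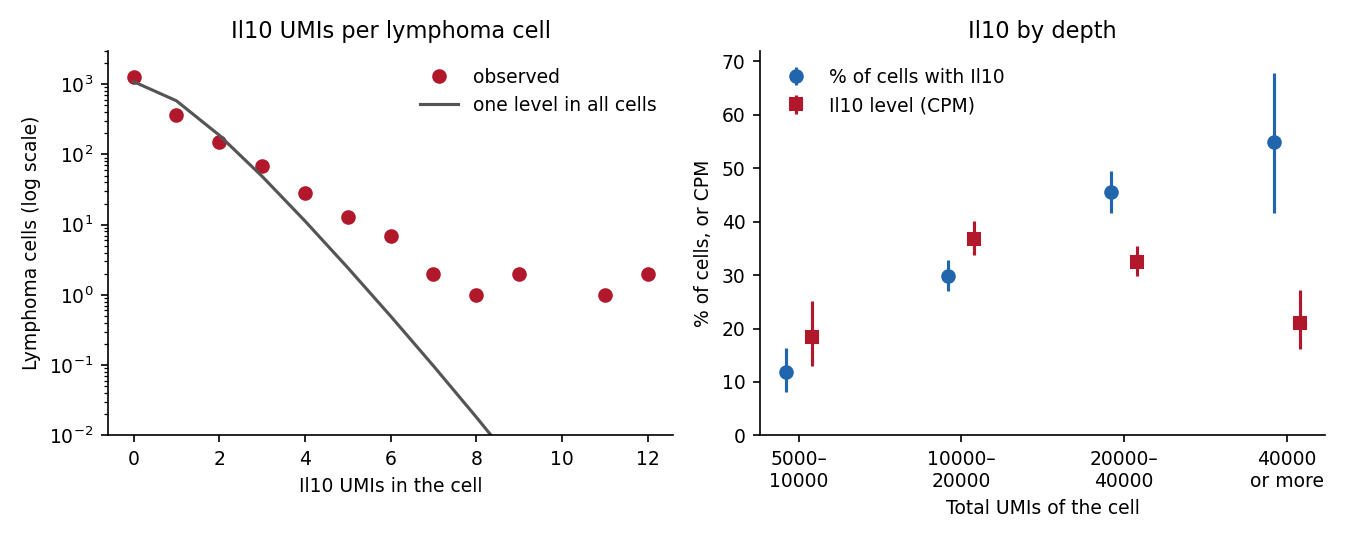
Left, the number of lymphoma cells (log scale) by their Il10 UMIs: points are the 1924 cells observed, and the line is the number if all cells had one level at their own depths. The points lie above the line at each count from 3 UMIs on that any cell had. Right, by total UMIs of the cell, the percent of cells with Il10 (circles) and the Il10 level in CPM (squares), with 95% counting intervals: the percent is higher in each deeper bin and the CPM is not.

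Il10 differed between sub-clusters of the clone that had been made without it. The highest level was in 194 cells led by Cyp11a1, Apoe and Spint2, at 83.4 CPM (73.4 to 94.5). Cyp11a1 encodes the enzyme that starts steroid hormone synthesis from cholesterol. These cells were 10.1% of the clone and held 21.3% of its Il10 UMIs, and 54.6% of them were Il10-positive at a median depth of 14455 UMIs. The next was a sub-cluster of 145 cells led by Zcwpw1 and Gnb3, at 51.7 CPM (42.8 to 61.9), whose interval did not meet the first.

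The middle of the order did not separate. The largest sub-cluster, 556 cells led by Il4i1 and Fstl1, had 31.9 CPM (28.5 to 35.7). Proliferating cells led by Mki67 had 29.3 CPM (25.8 to 33.2), cells led by the S-phase genes Ung and Cdc6 26.7 CPM (21.8 to 32.3), and 29 cells led by S100a6 30.9 CPM (16.4 to 52.8). Cells led by the mitotic genes Ube2c and Cdc20 had 15.9 CPM (12.4 to 20.0), and the lowest level, 12.5 CPM (8.35 to 17.9), was in 211 cells led by Mt1, Calr4, Gzmb and Ccl5 with a median of 10434 UMIs. Gzmb and Ccl5 are genes of cytotoxic lymphocytes, and summed T-cell markers, which include both, were highest in these cells, at 507 CPM against 288 CPM in the largest sub-cluster and 411 CPM in the Cyp11a1-led cells. Their part in the low Il10 level was not tested. After thinning, the share of cells with Il10 was 27.8% (21.7 to 34.7) in the Cyp11a1-led cells and 5.69% (2.97 to 9.72) in the Mt1-led cells.

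In the Cyp11a1-led cells the macrophage gene Apoe stood at 402 CPM, while the other 11 monocyte and macrophage markers summed to 56.8 CPM, against 40.4 CPM in the largest sub-cluster. Another 33 cells were led by the neutrophil genes S100a8 and S100a9, with 17698 CPM of neutrophil markers. They had 14.9 CPM of Il10 (7.91 to 25.4) and were left without a name.

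**Figure D2:**
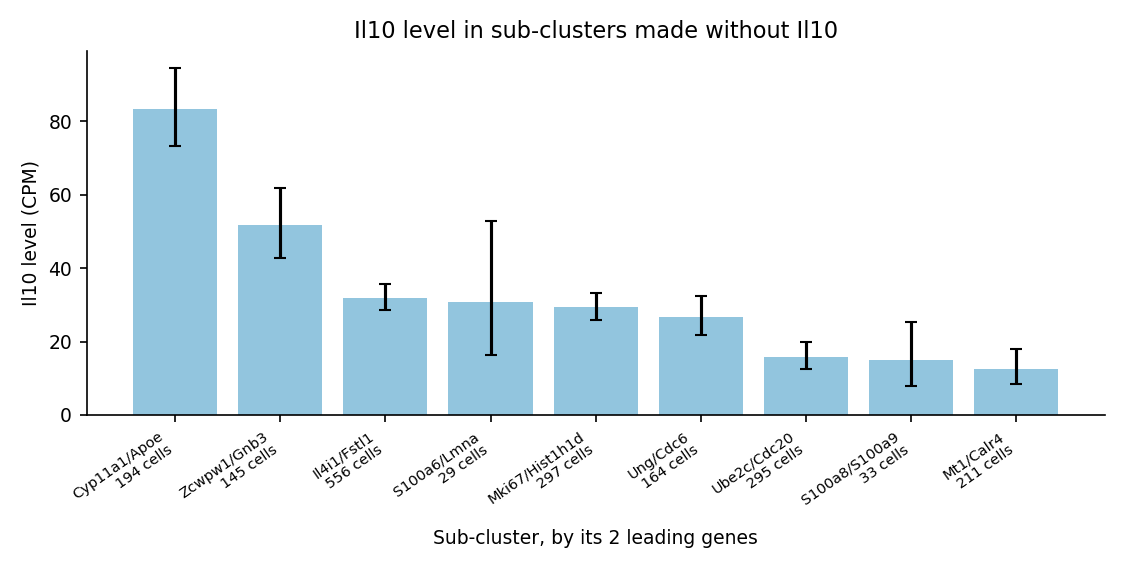
Il10 level in CPM (bars, from 0) in each of the 9 sub-clusters, named by 2 leading genes with the number of cells; lines are 95% Poisson intervals for counting error. The Cyp11a1-led cells stand at 83.4 CPM and the Zcwpw1-led cells at 51.7 CPM, above the other 7.

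Over all genes, the matched groups differed little. Of 9384 genes with at least 100 UMIs, 121 (1.29%) were at least 1.5-fold higher in Il10-positive cells and 78 (0.831%) at least 1.5-fold lower. The median log2 ratio of all genes was 0.06, and when ratios were divided by that median the counts were 93 higher and 100 lower. Among 10245 genes with at least 50 UMIs, the minimum used for the lists below, 2.38% were past 1.5-fold higher and 1.66% past it lower.

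Early activation genes were the list furthest from all genes. Of 20 early activation genes, 17 were measured and 7 were past 1.5-fold higher, 41.2% of those measured against the 2.38% of all genes. None was past 1.5-fold lower. Their median log2 ratio was 0.48, against 0.06 for all genes, and all 17 were above 0, 13 with intervals clear of 0. Of all genes with at least 50 UMIs, 64.2% were above 0 and 17.4% had intervals above 0. Set against the median of all genes, 17 of the 17 were above it.

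Egr1, an early transcription factor, had 70.6 CPM in Il10-positive and 39.1 CPM in Il10-negative cells, a log2 ratio of 0.85 (0.70 to 1.01). One cell held 138 of the clone's 1809 Egr1 UMIs. Egr1 was detected in 42.8% of the former and 31.7% of the latter. Egr3 of the same family was scarce, 47 against 15 UMIs, with a log2 ratio of 1.66 (0.79 to 2.60). Nab2, a corepressor that binds EGR proteins, had 21.7 and 12.7 CPM, a log2 ratio of 0.77 (0.49 to 1.05).

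The AP-1 subunits were also higher. Fosb had 75.7 CPM in Il10-positive and 44.0 CPM in Il10-negative cells, with a log2 ratio of 0.78 (0.64 to 0.93), and was found in 53.5% and 36.0% of cells. Fos had a log2 ratio of 0.67 (0.47 to 0.87) and Jun 0.70 (0.43 to 0.98). Nr4a1, an orphan nuclear receptor induced by antigen receptors, had 141 against 61 UMIs and a log2 ratio of 1.22 (0.78 to 1.68). Cd83, a surface protein of activated B cells, had 115 and 72.4 CPM, a log2 ratio of 0.67 (0.55 to 0.79). Cd69 (0.41), Junb (0.41), Ier2 (0.42), Dusp2 (0.45) and Myc (0.48) had log2 ratios above 0 that stayed under 1.5-fold.

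Of the early activation list, Fosb, Fos, Jun, Ier2 and Dusp1 are also in the list of genes that tissue dissociation can induce. Fosb, Fos and Jun were the 3 of 11 measured genes of the dissociation list past 1.5-fold, 27.3% against 2.38% of all genes. The median of that list was 0.09. Its heat shock members Hspa8, Hsp90ab1, Hsph1 and Dnajb1 had log2 ratios of 0.07, -0.04, -0.03 and 0.09. The part of dissociation in the early activation genes was not tested.

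NF-kappaB is the family of transcription factors downstream of CD40, Toll-like receptors and the B-cell receptor. All 21 of its measured list members were above 0, as were 64.2% of all genes, with a median log2 ratio of 0.15. Of them 20 were above the median of all genes. Only Nfkbid and Map3k14 were past 1.5-fold, 9.52% of the list against 2.38% of all genes. Nfkbid, an atypical nuclear inhibitor of the family, had 135 and 88.5 CPM, a log2 ratio of 0.61 (0.50 to 0.72). Map3k14, the kinase of the non-canonical branch, had 100 against 62 UMIs and a log2 ratio of 0.70 (0.23 to 1.18). The subunit Rel had 129 and 93.9 CPM, a log2 ratio of 0.46 (0.35 to 0.57), while Nfkb1, Nfkb2 and Relb each stood at 0.09.

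Among 28 measured genes known to regulate Il10 in lymphoid or myeloid cells, 4 (14.3%) were past 1.5-fold higher and 1 past it lower. Of all genes with at least 50 UMIs, 2.38% were past it higher and 1.66% lower. Bhlhe40, a repressor of Il10 in T cells and macrophages, had the largest ratio of the list at 288 against 105 UMIs, a log2 ratio of 1.47 (1.14 to 1.80). Its level in Il10-positive cells, 21.7 CPM, was under 10% of the 279 CPM in T-cell barcodes. Ahr, the aryl hydrocarbon receptor, had 47.2 and 30.8 CPM, a log2 ratio of 0.61 (0.43 to 0.80), and Batf3 had 81 against 45 UMIs. Jun was the fourth.

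Irf4, a driver of activated and plasma cell states, had 37.6 and 25.5 CPM, a log2 ratio of 0.56 (0.36 to 0.77), just under 1.5-fold. Prdm1 (-0.08, from -0.28 to 0.12), Nfil3 (0.06, from -0.32 to 0.43) and Stat3 (0.15, from 0.04 to 0.27) lay near the median of all genes. Maf, a main activator of Il10 in T cells, was nearly absent, with 14 UMIs in Il10-positive and 35 in Il10-negative cells. Cebpb was the gene past 1.5-fold lower, at 26.8 and 46.2 CPM. It stood at 1638 CPM in myeloid barcodes. Without the cells highest in markers of macrophages, neutrophils and red cells, Cebpb had 17.4 and 27.9 CPM, a log2 ratio of -0.68 (-0.94 to -0.44). Matched within sub-cluster and depth, Cebpb was at -0.61 (-0.81 to -0.40), and in cells low in cell-cycle genes at -0.23.

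Of 17 measured genes used to describe regulatory B cells, 1 was past 1.5-fold higher (Ahr) and 1 lower (Lgals3), with a median log2 ratio of 0.17. Of all genes with at least 50 UMIs, 2.38% were past it higher and 1.66% lower, so 1 gene each way does not set the list apart. Both chains of interleukin 35 stayed just under 1.5-fold: Il12a had 54.1 and 36.7 CPM, a log2 ratio of 0.56 (0.39 to 0.73), and Ebi3 had 64.5 and 44.1 CPM, a log2 ratio of 0.55 (0.40 to 0.70). Cd5, a marker of one such population, had 26.2 and 25.5 CPM, a log2 ratio of 0.04 (-0.18 to 0.26). Cd1d1 was at 0.17 (-0.09 to 0.43), and Tgfb1, another suppressive cytokine, at 0.17 (0.08 to 0.26).

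The receptor chains for IL-10 differed by less than counting error. Il10ra had 22.5 CPM in Il10-positive and 20.7 CPM in Il10-negative cells, a log2 ratio of 0.12 (-0.12 to 0.36), and Il10rb had 40.2 and 40.7 CPM, a log2 ratio of -0.02 (-0.19 to 0.16). None of 18 measured genes of the receptor and STAT3 response list was past 1.5-fold in either direction. Socs3, a STAT3 feedback inhibitor, was at 0.18 (-0.11 to 0.47). The genes next to Il10 on its chromosome were not past 1.5-fold either, 0 of 8 measured, and Il19, Il20 and Il24 of the same cytokine family had 3 UMIs or fewer each over both groups.

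Other programs had small ratios. Ighm, the constant region of IgM, had 1013 and 999 CPM, a log2 ratio of 0.02 (-0.01 to 0.05). Plasma cell genes had a median of 0.01 and MHC class I genes -0.01, none of them past 1.5-fold. MHC class II genes had a median of 0.17, all 11 above 0 (64.2% of all genes were), 9 of them above the median of all genes, and none past 1.5-fold. G2 and mitosis genes had a median of -0.08, with Ube2c at -0.23 (-0.31 to -0.16) and Mki67 at -0.03 (-0.08 to 0.02). Of the 18 measured, 4 were above 0 and 0 above the median of all genes, and none was past 1.5-fold. Type I interferon response genes had the lowest median, -0.15. Matched within sub-cluster and depth their median was -0.18, with Isg15 at -0.25 (-0.43 to -0.07). Without the 5% of cells highest in markers of other lineages it was 0.04, with Isg15 at 0.07 (-0.12 to 0.26). In the full comparison Ifi27l2a had 112 and 151 CPM, a log2 ratio of -0.43 (-0.53 to -0.33), and Ifit3 alone was past 1.5-fold, higher, from 68 UMIs in all.

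**Figure D3:**
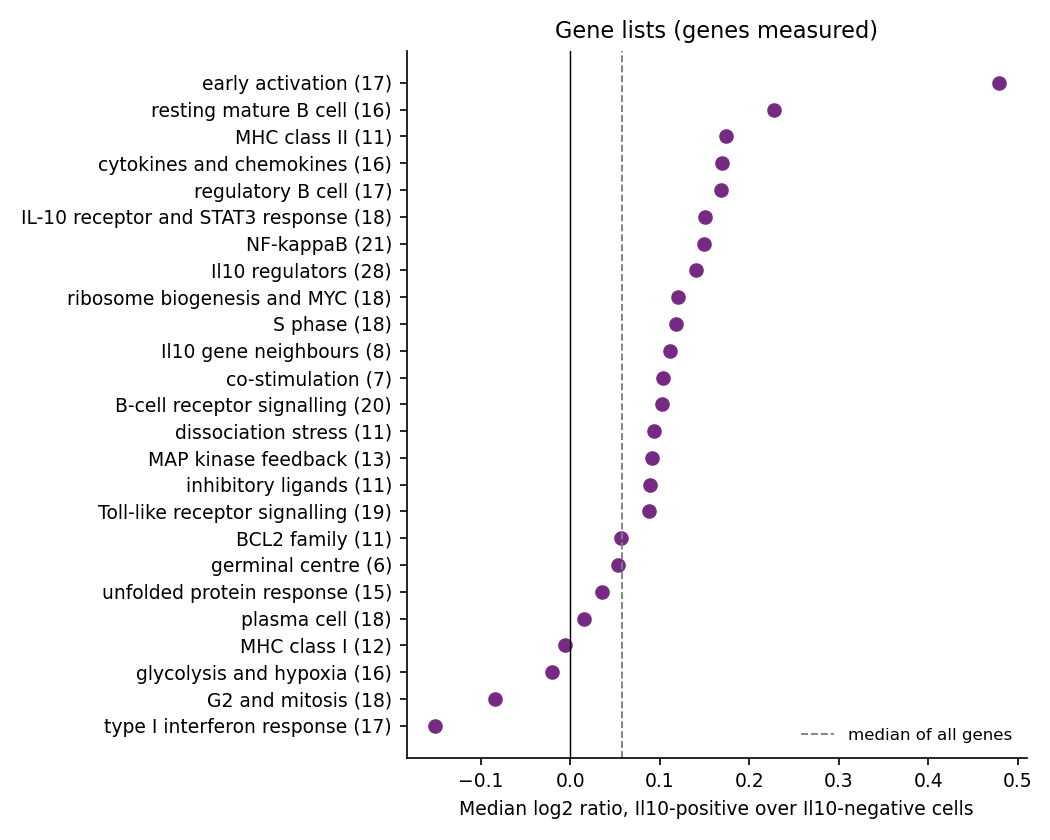
Median log2 ratio of CPM, Il10-positive over Il10-negative cells matched on total UMIs, for each of 25 gene lists, with the number of genes measured in brackets. The dashed line is the median of all 10245 genes with at least 50 UMIs, 0.06. Early activation genes stand at 0.48, and the next list, resting mature B cell genes, at 0.23.

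Other named genes were at their highest in the Cyp11a1-led sub-cluster, as Cyp11a1 itself. Cyp11a1 had 53.4 CPM in Il10-positive and 26.9 CPM in Il10-negative cells, a log2 ratio of 0.99 (0.80 to 1.18). Ubash3b, a phosphatase that dampens antigen receptor signalling, had 44.4 and 22.3 CPM, a log2 ratio of 0.99 (0.79 to 1.20). Trpm5, a cation channel, had a log2 ratio of 1.01 (0.72 to 1.30), Dmxl2 0.92 (0.68 to 1.17), Spint2, a protease inhibitor, 0.82 (0.58 to 1.06) and Sapcd1 0.60 (0.47 to 0.73). Within the sub-clusters, Cyp11a1 was at 263 CPM in the cells it led and at 14.5 CPM in the largest sub-cluster, and Spint2 at 138 and 10.0 CPM. The early activation genes Cd83 (203 CPM) and Myc (560 CPM) were also highest in the Cyp11a1-led cells. Egr1 (90.7 CPM) and Fosb (134 CPM) were highest in the Zcwpw1-led cells. Summed early activation genes stood at 1805 CPM in the Cyp11a1-led cells, 1320 CPM in the largest sub-cluster, 558 CPM in the Ube2c-led and 429 CPM in the Mt1-led cells. They stood at 1625 CPM in the Zcwpw1-led cells and at 1042, 1110 and 1159 CPM in the Mki67-led, Ung-led and S100a6-led cells. The 33 S100a8-led cells had 1804 CPM of them but 14.9 CPM of Il10, so the order of the sub-clusters was not that of Il10.

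Cells were also matched inside each sub-cluster as well as on depth, an alternative added after these values were seen. With 585 cells of each kind, 52 of 9301 genes (0.559%) were past 1.5-fold higher and 62 (0.667%) lower. Of the 121 genes higher in the first comparison 41 (33.9%) stayed past 1.5-fold, and they were 78.8% of the 52. Cyp11a1 then had a log2 ratio of 0.18 (-0.0033 to 0.35), Spint2 0.09 (-0.16 to 0.35) and Sapcd1 0.22 (0.08 to 0.35), while Ubash3b had 0.60 (0.40 to 0.81), Trpm5 0.55 (0.26 to 0.84) and Dmxl2 0.47 (0.23 to 0.72). Without the Cyp11a1-led cells Spint2 was lower in Il10-positive cells, at -0.29.

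Of the 7 early activation genes past 1.5-fold, 5 were still past it there. Egr1 was at 0.80 (0.64 to 0.96), Fosb at 0.65 (0.50 to 0.80), Fos at 0.59 (0.39 to 0.80), Nr4a1 at 1.66 (1.16 to 2.20) and Egr3 at 1.74 (0.79 to 2.81). Jun, at 0.58 (0.31 to 0.86), and Cd83, at 0.44 (0.32 to 0.56), were under it. The median of the list was 0.44, against 0.10 for NF-kappaB genes and 0.03 for MHC class II genes in the same setting. The next highest list there was ribosome biogenesis and MYC genes, at 0.21, and resting mature B cell genes were at 0.04. Of the other lists, Bhlhe40 was at 1.06 (0.73 to 1.40), Nfkbid at 0.53 (0.42 to 0.64) and Ahr at 0.41 (0.23 to 0.60), the last 2 no longer past 1.5-fold. Prdm1, near 0 before, was at -0.32 (-0.53 to -0.12). The sub-clusters had been drawn from these same cells and genes, Il10 excepted.

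**Figure D4:**
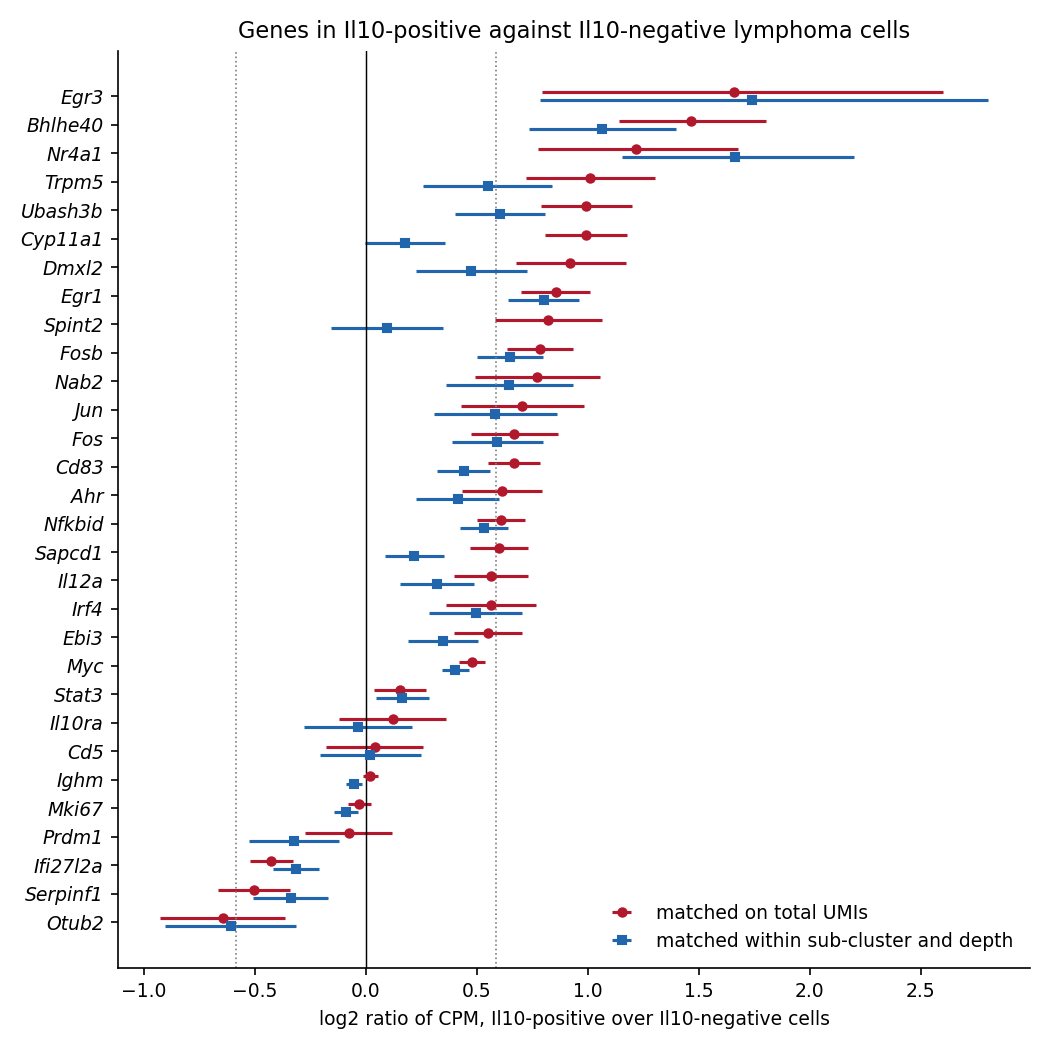
Log2 ratio of CPM, Il10-positive over Il10-negative lymphoma cells, for 30 named genes: circles for 628 cells of each kind matched on total UMIs, squares for 585 of each matched within sub-cluster and depth. Lines are 95% counting intervals and dotted lines mark 1.5-fold. Cyp11a1, Spint2 and Sapcd1 move close to 0 inside sub-clusters, while Egr1, Fosb and Nfkbid stay near their first values.

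The named genes were also read by the number of Il10 UMIs in a cell. Among cells of 10000 to 40000 UMIs, weighted to one distribution of depth, 1031 had no Il10 UMI, 326 had 1, 224 had 2 to 4 and 28 had 5 or more. Egr1 stood at 39.8, 60.8, 89.1 and 133 CPM over these groups. Cd83 stood at 71.7, 104, 142 and 246 CPM, Nfkbid at 89.8, 130, 149 and 178 CPM, and Cyp11a1 at 28.98, 47.6, 76.8 and 128 CPM. Myc, the growth regulator, stood at 302, 381, 491 and 614 CPM.

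Each of these 5 genes, picked among those already higher in Il10-positive cells, was higher in every step, as were 14.3% of the 9384 genes with at least 100 UMIs and 10 of the 17 early activation genes. Of the 12 named higher genes 9 were, and Fosb, Fos and Nab2 were not. Fosb was higher up to 2 to 4 UMIs, at 43.9, 75.8 and 91.8 CPM, and had 89.0 CPM (63.6 to 121) in the 28 cells with most Il10. Fos had 49.8 CPM at 2 to 4 UMIs and 42.5 CPM (29.2 to 59.7) at 5 or more. Nab2 had 23.3 CPM (19.3 to 27.9) and then 4.80 CPM (0.989 to 14.0), the last from 3 UMIs. Il10ra stood at 22.6, 24.9, 26.0 and 13.0 CPM, the last from 8 UMIs, and Ighm at 1011, 1004, 1049 and 895 CPM. Of the mitotic genes, Ube2c stood at 184, 157, 130 and 18.6 CPM, the last from 15 UMIs. Mki67 stood at 382, 359, 414 and 161 CPM. A cell with 1 UMI and a cell with none can differ by capture alone, so each step is an average over cells.

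**Figure D5:**
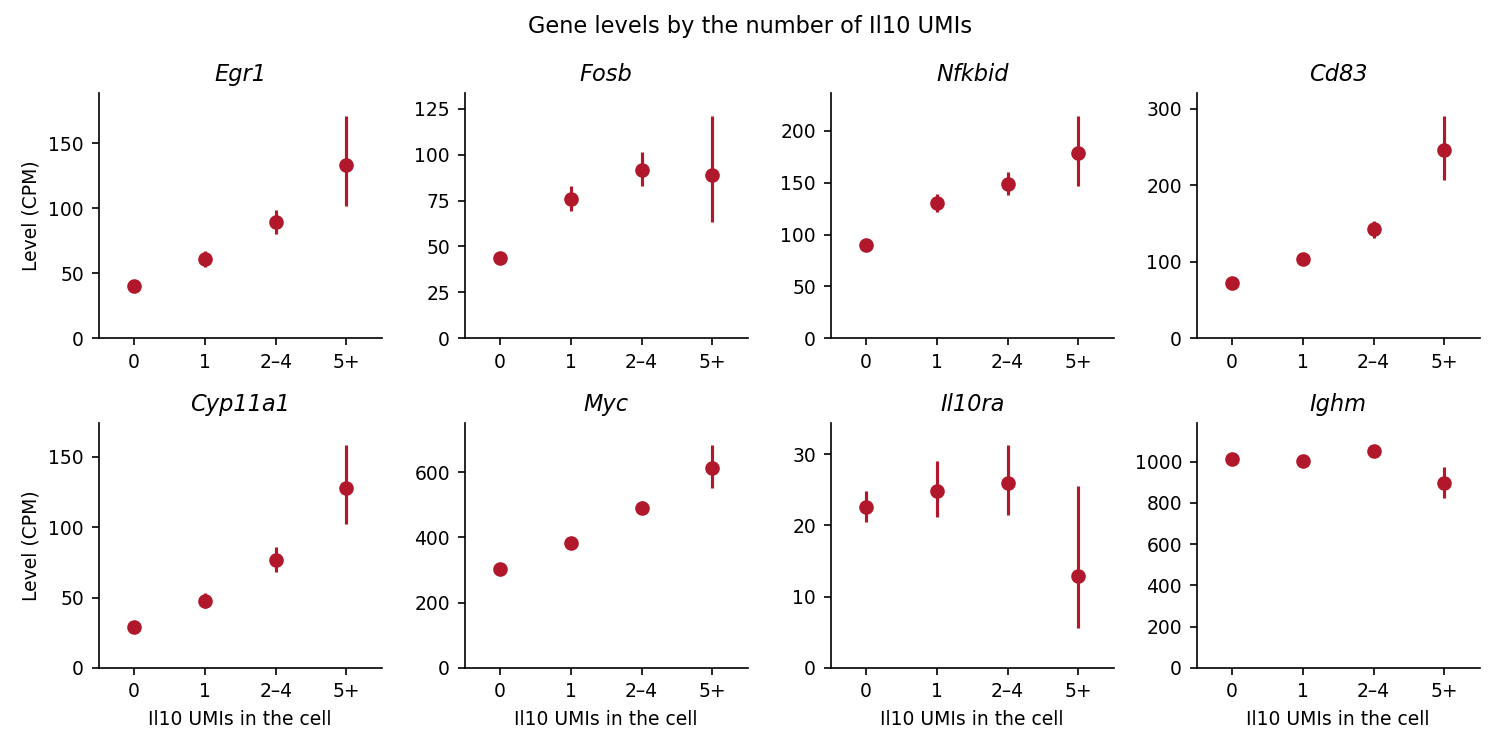
Level in CPM of 8 genes in lymphoma cells with 0, 1, 2 to 4, and 5 or more Il10 UMIs, for cells of 10000 to 40000 UMIs weighted to the same depth; lines are 95% counting intervals. Egr1, Nfkbid, Cd83, Cyp11a1 and Myc are higher in each group with more Il10, while Il10ra and Ighm show no such order.

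The split was also made the other way round, by gene list. Cells thinned to 5000 UMIs were put in 4 equal groups of 481 by their UMIs of a gene list, and the share with an Il10 UMI was read in the lowest and highest. For early activation genes it was 6.03% (4.07 to 8.54) in the lowest and 19.3% (15.9 to 23.2) in the highest. For NF-kappaB genes it was 7.28% and 16.4%, for resting mature B cell genes 7.28% and 16.2%, and for the regulators of Il10 8.32% and 17.0%. For regulatory B cell genes it was 7.69% and 16.0%, and for B-cell receptor signalling genes 8.11% and 15.8%. For G2 and mitosis genes it was 12.5% and 8.32%, with intervals that overlap.

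Genes lower in Il10-positive cells rested largely on a few barcodes. The neutrophil granule gene Ngp had 18 UMIs in Il10-positive and 1824 in Il10-negative cells, but 1 Il10-negative cell held 1765. Camp, Ltf, Lcn2, Retnlg, S100a8 and S100a9, also neutrophil genes, and Car1 and Car2, carbonic anhydrases of red cells, were the others of this kind among the 12 named genes. In 45 of the 78 lower genes 1 barcode held at least 10% of the clone's UMIs, against 4 of the 121 higher genes and 70 of all 9384 genes tested. Summed neutrophil markers were 21.7 CPM in Il10-positive and 981 CPM in Il10-negative cells, with a median of 0 per cell in both.

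Without the 5% of cells highest in markers of macrophages, neutrophils and red cells, 97 cells of which 33 were Il10-positive, 21 of 9237 genes (0.227%) were past 1.5-fold lower and 120 (1.3%) higher. S100a9 then had a log2 ratio of 0.29. Car1 and Car2 were still lower, at -2.15 (-2.51 to -1.80) and -1.24 (-1.57 to -0.93). Of the 97 cells 39 lay in the Cyp11a1-led sub-cluster, and 9 when Apoe was left out of the markers and the 5% drawn again. Serpinf1, a secreted serpin, was lower in both settings, at 40.5 and 57.4 CPM and a log2 ratio of -0.51 (-0.67 to -0.34) in the full comparison. Otub2, a deubiquitinase, had 12.9 and 20.2 CPM, a log2 ratio of -0.65 (-0.93 to -0.36). Lgals9, which encodes galectin 9, had a log2 ratio of -0.56 (-0.74 to -0.38) with 1 barcode holding 126 of its 1449 UMIs, and -0.32 without the 97 cells. By the number of Il10 UMIs (none, 1, 2 to 4, and 5 or more, in cells of 10000 to 40000 UMIs) Lgals9 showed no order, at 33.0, 34.6, 33.0 and 28.9 CPM.

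T cells of the same spleen were split in the same way, 814 barcodes with and 814 without Il10 at medians of 9603 and 9561 UMIs. Egr1 (1.86), Nr4a1 (2.03), Nfkbid (1.92) and Fos (1.15) had log2 ratios above 1 there, and Maf (0.97) and Prdm1 (1.0), which were not higher in Il10-positive lymphoma cells, lay near 1. Other early activation genes differed in T cells: Egr3 was at 2.15 (1.32 to 3.06) and Junb at 0.26 (0.21 to 0.31). Fosb was at 0.37 (-0.21 to 0.96), Myc at 0.11 (-0.02 to 0.24) and Jun at -0.15 (-0.36 to 0.05), with intervals that include 0. Cyp11a1 had 20 UMIs in all of these T cells, and Cd83 was at -0.21 (-1.06 to 0.63). Whether the lymphoma and T-cell ratios differ was not tested.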

How the data were processed

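Gene expression and TCR libraries from the spleens of 1 pBIC and 1 pBIC10 mouse were used. The deposited matrices hold UMI counts (unique molecular identifiers, 1 per captured transcript) for 32285 features per barcode, made by the authors from 10x 5' libraries. Per the submitters' processing notes the tool was Cell Ranger 3.0.1 and the build GRCm39, while the file headers name cellranger 5.0.1. The matrices hold no empty droplets (the shallowest barcodes have 500 UMIs in pBIC and 657 in pBIC10), and free RNA was therefore not read from them. The deposited TCR contig tables served only to tell which barcodes carried a contig, and a contig of the TRB chain was required of T-cell barcodes. The contigs were not filtered further here.

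Here, a barcode needed 200 genes or more and a mitochondrial share below 10%, and the clone rule was applied to the rest. Il10-positive and Il10-negative cells were paired in number within 20 bins of total UMIs (random draw, seed 1). UMI counts were summed over cells and divided by the group total without Il10, as CPM (counts scaled to a total of 1e6). Ratios carry exact conditional binomial intervals, levels exact Poisson intervals and shares exact Clopper-Pearson intervals, all at 95% and all for counting error only. A gene counted as higher or lower past 1.5-fold with at least 100 UMIs over both groups, and list members needed 50 UMIs. With 1 library no test was made. Where a symbol had more than 1 feature, the one with more UMIs stood for it. Cells were thinned to 5000 UMIs for shares, for the Fano factor and for Leiden sub-clusters at resolution 0.5 (2000 variable genes without Il10, immunoglobulin and TCR segments, 20 components, 15 neighbours).

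The main comparison removed no doublets. Scrublet (expected rate 0.08) was run 3 times on the 17871 filtered barcodes. With seed 0 it called 0, with and without a filter on rare genes, at a score threshold of 0.718. It was then run with seed 1, chosen after that outcome was seen, and called 388 (2.17%) at a threshold of 0.326, 20 of them in the clone. Only the calls of seed 1 served as an alternative.

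Named genes were 12 per direction, ranked by the interval bound nearest to no difference, with at least 20 CPM and at least 10% of the level in T-cell and myeloid barcodes, leaving out immunoglobulin, TCR, mitochondrial, ribosomal, haemoglobin and predicted genes. Up to 3 members per direction of each of 25 lists were added, and a fixed set around Il10. The clone, its members and all lists were chosen with earlier results of these data known. The comparison was also run on simulated Poisson counts with known fold changes. In these no barcode holds most UMIs of a gene, so the run does not cover genes such as Ngp. Tools were Python 3.11.15, numpy 2.4.6, scipy 1.17.1, pandas 2.3.3, scanpy 1.11.5 and leidenalg 0.10.2.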

Additional observations from a re-analysis of the deposited data

How the results depend on the processing

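The cells come from 1 mouse and 1 library, so no result has a replicate check, and a cell with no Il10 UMI may hold the transcript. No paired analysis was possible because each genotype has 1 mouse and no comparison has replicates. The alternatives "without Scrublet calls" at seed 0 gave no value, since that run called no barcode. Seed 1 was taken after this was seen and gave 142 genes past 1.5-fold higher and 55 lower.

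The 121 higher genes became 208 with Il10-positive from 2 UMIs, 203 with the mean of CPM per cell, 357 after thinning, 273, 254 and 63 in the shallowest, middle and deepest of 3 depth groups, and 52 matched within sub-cluster and depth. With minimums of 20 and 300 UMIs they were 510 and 28, and with none 2603. The 78 lower genes became 400, 23 and 2315 under those minimums, 218 after thinning, 41 in the shallowest depth group, 45 with at least 50 UMIs of each V segment, 36 in cells low in cell-cycle genes, 51 without UMIs of other T-cell genes and 21 without the cells highest in other-lineage markers. The cause of each shift was not tested. The share of cells with Il10 was 43.5% and the level 27.9 CPM with at least 50 UMIs of each V segment, and the share was 11.3% and 6.36% after thinning to 5000 and 2000 UMIs. The highest sub-cluster was at 83.5 CPM at resolution 1.0 and 85.0 CPM without cell-cycle genes among the variable genes.

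Of 35 named genes past 1.5-fold under 20 settings, 661 values had at least 20 UMIs, a minimum set after the values were seen, and 645 kept their direction. Another 39 had fewer UMIs, 14 of them of the other sign. A kept direction was often not a kept size. With Il10-positive from 2 UMIs 21 values counted as moved and 13 as the same, and in the deepest depth group 19 and 16. Weighted over bins, 0 moved and 35 were the same. The genes were past 1.5-fold in the same clone cells that every setting draws on, so a kept direction is no separate check. The 16 reversals, as log2 ratios, were Car1 (0.23 with 50 UMIs of each V segment, 0.28 in cells low in cell-cycle genes, 0.40 in the middle depth group), Car2 (0.38, thinned), Ifit3 (-0.15, thinned), Il1b (0.58 low in cell-cycle genes, 0.70 thinned), Lgals3 (0.87 low in cell-cycle genes, 0.43 within sub-clusters, 0.10 without other-lineage cells), Il18 (0.0016 without other-lineage cells), S100a9 (0.29 without them, 1.34 in the shallowest depth group), Otub2 (0.26, shallowest depth group), Spint2 (-0.29, without the Cyp11a1-led cells) and Tlr2 (-0.21, without other T-cell genes).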

Other observations

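The genes given here lie outside the naming rule and were chosen after their values were seen. Ccnd1 and Met are under the minimum of 20 CPM. Ccnd1, cyclin D1, had 174 UMIs in Il10-positive and 66 in Il10-negative matched cells, a log2 ratio of 1.41 (0.99 to 1.84), and 1.1 when matched within sub-clusters. Met, the receptor of hepatocyte growth factor, had 139 against 57 UMIs, a log2 ratio of 1.30 (0.84 to 1.77), and 1.15 within sub-clusters. S100a6, a calcium-binding protein, had a log2 ratio of 0.39 (0.30 to 0.48) in the full comparison and 0.85 (0.75 to 0.95) without the cells highest in other-lineage markers, and 1 cell held 379 of the clone's 5211 UMIs. Cd24a, a surface protein of immature and activated B cells, had 334 and 259 CPM, a log2 ratio of 0.36 (0.30 to 0.43). The co-stimulatory ligands Cd80 and Cd86 were at 0.05 (-0.17 to 0.26) and 0.04 (-0.09 to 0.18), and the inhibitory ligand Cd274 at 0.09 (-0.04 to 0.22).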
